A study of Mus musculus with 9 samples.

Results

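The transcriptome described here is the baseline of the Sham cultures, the negative control cells of a study of the transcription factor EGR1 in kidney injury. The Sham libraries were 3 of the 9 RNA-seq libraries of the series, and of the 31167 rows of the expression table the 18266 protein-coding rows were taken. RNA came from primary renal tubular epithelial cells, cells taken from the kidneys of C57BL/6 mice and grown in a dish to about 50% confluence. A transfection reagent is named in the treatment text that all samples share, while the study describes the Sham cells as untreated. The labels also do not give the age or number of the mice, nor whether the 3 Sham libraries were separate cultures, so the spread given below may be technical. The other groups of the series, which were exposed to hypoxia and reoxygenation or received an Egr1 plasmid, were not used. Since there was a single group, no test between conditions was made.

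The renal tubule is lined by a single layer of epithelial cells, which are held together by E-cadherin and tight junctions and carry a different set of transporters in each segment. The proximal tubule, which reclaims most of the filtered solutes, takes up filtered protein through the receptors megalin and cubilin. Tubule cells that are injured, or that are taken out of the kidney and spread on plastic, are known to lose transporters, flatten and build actin cables, and to make matrix proteins and injury markers such as KIM-1 (the product of Havcr1).

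The unit is FPKM, the fragments of a gene per kilobase of its exons, scaled to the fragments of the library, so that levels of different genes within a library can be set side by side. Depth, recovered from the size of the smallest steps in the table, was 16443352, 17434909 and 16507689 reads. At this depth 3 reads, the most that a count of 0 allows, correspond to 0.0831 FPKM for a gene of the length of Acta2, and such limits cover counting error only. Protein-coding rows held 92.9%, 93.8% and 87.6% of the summed FPKM, and the lower share in replicate 3 went with the non-coding row Gm23935, which stood at 4188, 1697 and 19553 FPKM. Of the protein-coding genes, 10645 were at 1 FPKM or more in each of the 3 libraries, and 1497 were listed at 0 in all 3. By mean level 59.4% of the 18266 genes reached 1 FPKM, 365 reached 100 FPKM, and the median was 2.46 FPKM.

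The 5 genes used to check the label gave an epithelial culture with injury and contractile transcripts and little of the proximal tubule's endocytic receptor. Cdh1, which encodes E-cadherin, stood at 86.4, 86.4 and 85.97 FPKM in replicates 1, 2 and 3 (86.2 ± 0.247, SD, n = 3) and ranked 435 among protein-coding genes. Epcam, which encodes an epithelial adhesion protein, stood at 77.1, 76.1 and 75.4 FPKM (76.2 ± 0.881, rank 524). Both epithelial genes were within the highest 2.87% of protein-coding genes by mean. Havcr1, whose product KIM-1 is the best known marker of injured proximal tubule, was at 108, 116 and 122 FPKM (115 ± 7.14, rank 306), higher than Cdh1 in each library. Lrp2, which encodes megalin, was at 3.67, 3.61 and 3.51 FPKM (3.60 ± 0.0824) and ranked 8112. The log2 ratio of Havcr1 to Lrp2, each with 1 FPKM added, was 4.54, 4.66 and 4.77 in the 3 libraries (4.66 ± 0.11).

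Acta2 stood far above the other markers. This gene encodes smooth muscle actin, a protein of contractile cells and myofibroblasts, and it lies on chromosome 19 from 34241090 to 34255336 on the minus strand (GRCm38). It was at 2986, 2873 and 2980.5 FPKM (2947 ± 63.7), rank 2, with Eef1a1, the elongation factor at rank 3, at 2978, 2877 and 2978 FPKM. The order of Acta2 and Eef1a1 differed between libraries, so the 2 could not be ranked against each other. Acta2 exceeded Cdh1 by 5.08 ± 0.03 on the log2 scale (FPKM + 1) and lay above it in 3 of 3 libraries. Its reads numbered 107833, 110003 and 108044. None of its exon bases lay under another gene and none of its sampled 100-base words occurred in transcripts of another gene.

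**Figure D1:**
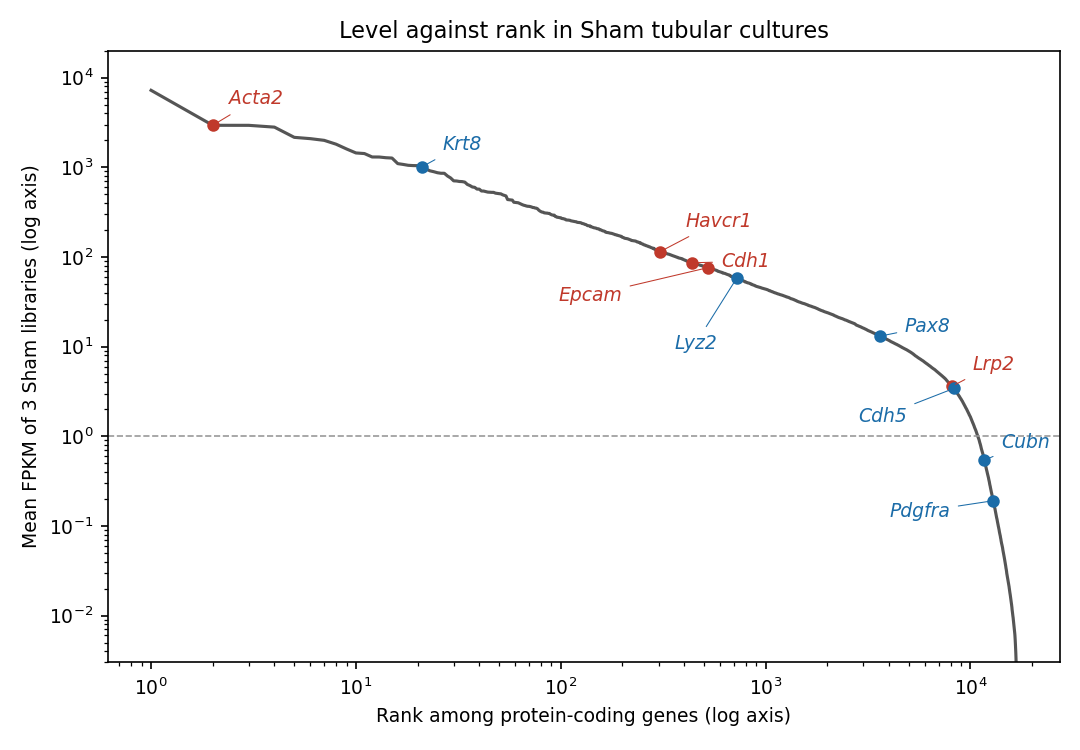
Mean FPKM of the 3 Sham libraries (y axis, log) against rank among protein-coding genes (x axis, log), with the 5 check genes in red and 6 other markers in blue; genes listed at 0 are not drawn, and the dashed line marks 1 FPKM. Acta2 sits at rank 2, Havcr1, Cdh1 and Epcam between ranks 306 and 524, and Lrp2 at rank 8112 beside the endothelial gene Cdh5.

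The most abundant transcripts fell into a few kinds. The 30 highest protein-coding genes held 18.3% ± 0.18 of the summed protein-coding FPKM. Mitochondrially encoded genes gave 6 of the 30, led by mt-Co1, a subunit of cytochrome oxidase, at 7157, 7069.7 and 7490.1 FPKM. The actin cytoskeleton gave 7, with Actb, the cytoplasmic beta-actin, at 1763, 1831 and 1848 FPKM, and with Tmsb4x, which encodes the actin-binding thymosin beta 4, at 1423, 1424 and 1499 FPKM. Secreted, matrix and adhesion genes also gave 7, and translation gave 6. The remaining 4 were S100a11, Krt8, Hsp90ab1 and Ankrd1. Fn1, which encodes fibronectin, was at 2128, 2087 and 2056 FPKM, rank 6. A matrix gene thus stood above beta-actin in each library.

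**Figure D2:**
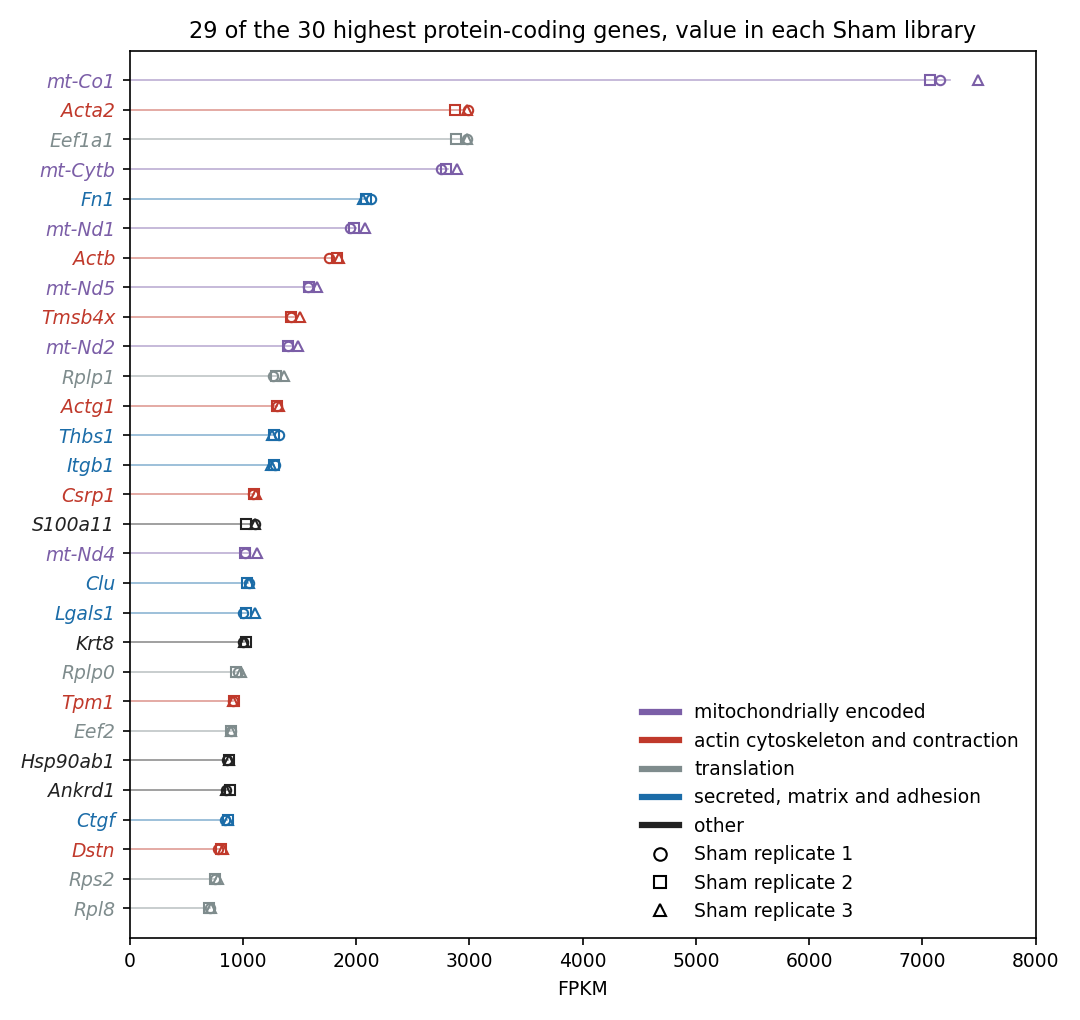
FPKM (x axis, linear from 0) of 29 of the 30 highest protein-coding genes in each of the 3 Sham libraries, with lines drawn to the mean and colours for the kind of gene. The symbols of a gene lie close together, and mt-Co1 stands alone at 7239 FPKM by mean.

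Epithelial junction and adhesion genes were present throughout. Of 28 listed genes 28 reached a mean of 1 FPKM, against 59.4% of all protein-coding genes. The median was 20.8 FPKM against 2.46 FPKM over all protein-coding genes, and 2 of the listed genes exceeded 100 FPKM. Those were Ctnna1 at 224 ± 3.07 FPKM and Ctnnb1 at 122 ± 2.57 FPKM, which encode the alpha- and beta-catenins that tie cadherins to actin. Perp, a desmosome component, was at 81.2 ± 0.419 FPKM and F11r, which encodes the junctional adhesion molecule A, at 76.6 ± 1.81 FPKM. Among regulators of epithelial identity 7 of 12 reached 1 FPKM (58.3%, against 59.4% of all protein-coding genes), with a median of 3.42 FPKM. This share was thus close to that of protein-coding genes at large. The members of this list below 1 FPKM had means from 0.0142 to 0.429 FPKM. Esrp1 and Esrp2, splicing factors of epithelial cells, were at 10.6 ± 0.351 and 6.30 ± 0.220 FPKM, and Grhl2, a transcription factor that keeps Cdh1 on, was at 2.94 ± 0.197 FPKM.

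The keratins were those of simple epithelium, with an exception. Krt8 and Krt18, which pair to form the filaments of single-layered epithelia, were at 1003, 1026 and 1012 FPKM and 669.9, 688 and 696 FPKM, a ratio of 1.48 ± 0.023. Krt19 and Krt7, keratins of ducts, were at 83.3 ± 1.41 and 80.8 ± 2.06 FPKM. Krt20 was at 19.3 ± 1.99 FPKM and Krt80 at 18.6 ± 1.17 FPKM. Of the 10 measured keratins of stratified epithelium, 1 reached 1 FPKM (10%, against 59.4% of all protein-coding genes). It was Krt17, a keratin of basal cells and of wounded skin, at 125, 133 and 133 FPKM, which was above Krt19 in each library (ratio 1.57 ± 0.065). The basal pair Krt5 and Krt14 lay at 0.139, 0.0524 and 0 FPKM and 0.138, 0.228 and 0.241 FPKM, so Krt17 was not accompanied by that pair at a like level.

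Claudins, the tight junction proteins that set which ions pass between cells, split sharply. Of 13 listed, 6 reached 1 FPKM (46.2%, against 59.4% of all protein-coding genes). Each of those 6 was above 20 FPKM, while the other 7 were below 0.4 FPKM. Cldn4, a claudin of the distal nephron and collecting duct, was at 513, 514 and 492 FPKM (rank 51). Cldn1, Cldn3, Cldn7 and Cldn12 were at 81.9, 76.6, 40.2 and 35.1 FPKM. The remaining high claudin was Cldn6, a claudin of embryonic epithelium, at 26.7 ± 1.83 FPKM, which is named here because it completes the 6. Cldn2, the leaky claudin of the proximal tubule, was at 0.311, 0.172 and 0.200 FPKM.

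Transcription factors of the kidney lineage were kept in part. Of 28 measured, 24 reached 1 FPKM (85.7%, against 59.4% of all protein-coding genes), with a median of 5.48 FPKM. Pax2 and Pax8, paired-box factors that specify renal epithelium, were at 15.1, 14.4 and 14.4 FPKM and 13.4, 13.05 and 12.8 FPKM. Hoxb7 and Emx2, homeobox genes of the ureteric bud and its derivatives, were at 27.8 ± 0.947 and 25.003 ± 1.55 FPKM. Sox4 was at 38.2 ± 1.55 FPKM, with 54.6% of its exon bases under another gene. Sox9, a progenitor factor that tubule cells switch on after injury, was at 12.3, 14.1 and 12.97 FPKM. Hnf4a, the nuclear receptor that drives the mature proximal tubule programme, was listed at 0 in all 3 libraries, where 3 reads would be 0.0378 FPKM.

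The transporters and enzymes that mark the mature proximal tubule were low. Of 42 measured genes 10 reached 1 FPKM (23.8%, against 59.4% of all protein-coding genes), 23 were below 0.1 FPKM and 7 were listed at 0. The median was 0.069 FPKM. Ass1, an enzyme of arginine synthesis that many cell types express, was at 46.5, 45.8 and 44.8 FPKM and gave 54.1% of the list's summed level. Dab2, an adaptor of megalin endocytosis that also serves other cells, was at 11.3 ± 0.530 FPKM. The amino acid carrier Slc7a7 and the bicarbonate carrier Slc4a4 were at 6.09 ± 0.590 and 3.87 ± 0.212 FPKM. Cubn, which encodes cubilin, was at 0.546, 0.503 and 0.572 FPKM, and Slc34a1, the brush border phosphate carrier, at 0.0130, 0 and 0 FPKM. Megalin, at 1009, 1052 and 968 reads, was thus the highest of the 3 defining genes.

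No other nephron segment had its full set of markers. For the loop of Henle, Umod, which encodes uromodulin, was listed at 0 in the 3 libraries and Slc12a1, the NKCC2 carrier, was at 0.0528, 0.00995 and 0.0631 FPKM, or 5, 1 and 6 reads. Akr1b3, aldose reductase, and Bst1 carried that list at 19.5 ± 0.348 and 13.5 ± 0.450 FPKM. For the distal convoluted and connecting tubule, the carrier gene Slc12a3 was at 0.0164, 0.0206 and 0.00545 FPKM and Calb1, calbindin, was listed at 0, while the widely expressed kinase Wnk1 was at 25.7 ± 0.133 FPKM. The level of Slc12a1 in replicate 2 lay under the 3 reads that a count of 0 allows at this depth. Its 5 and 6 reads in replicates 1 and 3 lay above that limit.

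Collecting duct genes were mixed. Aqp2 was not analysed here. Scnn1g, a subunit of the epithelial sodium channel, was at 0.183, 0.173 and 0.162 FPKM. The sialyltransferase St6gal1 was at 32.9 ± 1.36 FPKM and Hsd11b2, the enzyme that shields the mineralocorticoid receptor from cortisol, at 16.04 ± 0.720 FPKM. Krt18, which all simple epithelia share, made up 86.1% of that list's summed level, and without it the sum fell to 110.3 FPKM. Among the 13 measured genes of intercalated cells 1 reached 1 FPKM (7.69%, against 59.4% of all protein-coding genes). It was Car2, the cytosolic carbonic anhydrase, at 26.8 ± 0.356 FPKM. Slc26a4, pendrin, was listed at 0. For urothelium, Upk1b was at 0.0344, 0.0324 and 0.103 FPKM and Upk3b at 1.08 ± 0.0203 FPKM. For podocytes, Nphs1, nephrin of the slit diaphragm, was at 0.00919, 0 and 0.00915 FPKM, while Wt1 was at 3.45 ± 0.247 FPKM and the intermediate filament gene Nes, which is not confined to podocytes, at 159, 174 and 144 FPKM.

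Genes of tubule injury and dedifferentiation were high as a group. Of 40 listed, 34 reached 1 FPKM (85%, against 59.4% of all protein-coding genes). At 100 FPKM or more there were 19, against 365 of all 18266 protein-coding genes. The median was 87.8 FPKM against 2.46 FPKM over all protein-coding genes. The list held 3.55% ± 0.027 of the summed FPKM. Of its genes 10 also stood on another list. Clu, the secreted chaperone clusterin, was at 1054, 1035 and 1053 FPKM, and S100a11, a calcium-binding protein, at 1107, 1023 and 1106 FPKM, ranks 19 and 17. Lcn2, which encodes NGAL, an iron carrier used as a urinary injury marker, was at 156, 151 and 147 FPKM. The injury genes did not all stand high. Vcam1, an adhesion molecule of tubule cells that fail to repair, was at 2.40, 2.55 and 2.57 FPKM, below Lcn2, Havcr1 and Sox9 in each library. Of the 40, 6 were below 1 FPKM.

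Epithelial and mesenchymal cadherins were at nearly the same level. Cdh2, which encodes N-cadherin and is also found in normal tubule, was at 84.4, 80.5 and 82.5 FPKM beside the Cdh1 values given above. The log2 ratio of Cdh1 to Cdh2 was 0.03, 0.10 and 0.06 (0.06 ± 0.03), with Cdh1 higher in 3 of 3 libraries. Vim, the intermediate filament vimentin, was at 518, 527 and 538 FPKM and exceeded Cdh1 in each library (log2 ratio of Cdh1 to Vim -2.60 ± 0.03). Of the 18 listed genes of the epithelial-mesenchymal transition 15 reached 1 FPKM (83.3%, against 59.4% of all protein-coding genes). Their median was 4.86 FPKM against 2.46 FPKM over all protein-coding genes. The transcription factors that drive this transition were much lower than Cdh2 and Vim. Zeb1 was at 4.65 ± 0.0589 FPKM, Snai2 at 4.49 ± 0.298 FPKM, Twist1 at 1.25 ± 0.419 FPKM and Snai1 at 1.16 ± 0.0969 FPKM. Zeb1 and Snai2 were thus above the median of all protein-coding genes, and Twist1 and Snai1 below it. Cdh11, a cadherin of mesenchymal cells, was at 40.01 ± 0.867 FPKM. Tgfb2, a ligand of the TGF-beta pathway, was at 31.2 ± 0.933 FPKM and its receptor Tgfbr2 at 22.04 ± 0.266 FPKM.

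**Figure D3:**
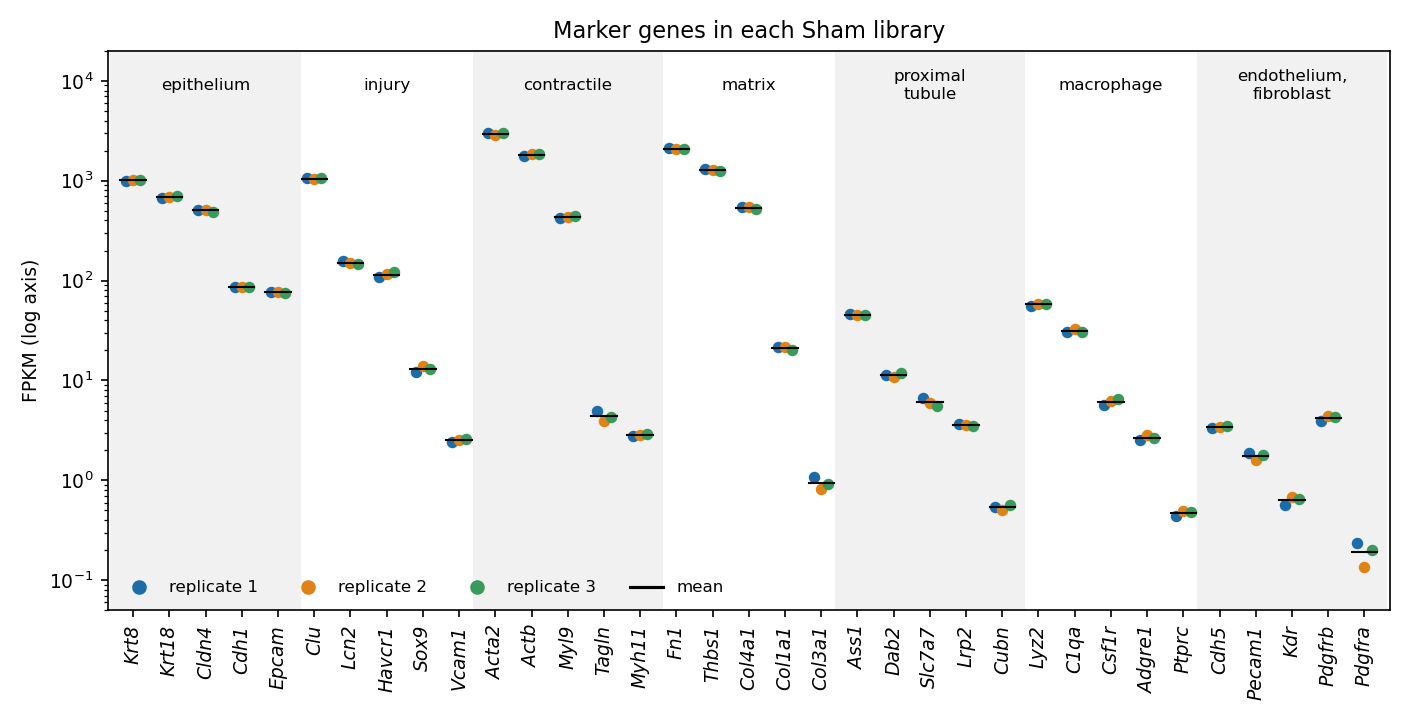
FPKM (y axis, log) of 35 marker genes in Sham replicates 1, 2 and 3 (points) with their mean (black line), grouped by what the genes mark. Replicates overlap closely, Acta2 and Fn1 stand highest, and the genes at the right edge of each block stand lowest.

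Contractile and actin cytoskeleton genes were the highest of the lists of nuclear genes by median. Of 36 genes, 34 reached 1 FPKM (94.4%, against 59.4% of all protein-coding genes), with a median of 153 FPKM. At 100 FPKM or more there were 23, against 365 of all 18266 protein-coding genes. The 36 genes held 4.87% ± 0.0041 of the summed FPKM, and Acta2 alone was 23.2% of that. Besides Acta2, Actb and Actg1, the cytoplasmic gamma-actin at 1304 ± 9.48 FPKM, the list was led by Tpm1, a tropomyosin, at 909, 919.9 and 916 FPKM and Flna, the actin crosslinker filamin A, at 578, 584 and 555 FPKM. Myl9, the regulatory light chain of smooth muscle myosin, was at 427, 431 and 441 FPKM.

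Genes of differentiated smooth muscle stood at very different levels beside Acta2. Cnn1, which encodes calponin, was at 248, 247 and 257 FPKM (rank 114) and Smtn, smoothelin, at 107, 103 and 106 FPKM (rank 346). The tropomyosin gene Tpm2 was at 149 ± 3.80 FPKM and Lmod1, a leiomodin, at 36.03 ± 0.890 FPKM. These 4 genes were named after their values were seen. Myh11, the smooth muscle myosin heavy chain, was at 2.75, 2.83 and 2.90 FPKM (rank 8789). Tagln, which encodes SM22 alpha and is usually abundant where Acta2 is, was at 4.89, 3.89 and 4.33 FPKM. That value is uncertain, since 67.9% of the exon bases of Tagln lay under exons of a gene on the other strand, and how the authors' counting treated such bases is not given in the sources used here. The 6 actin genes were set side by side because their sequences are alike. Acta2 exceeded Actb in 3 of 3 libraries by 0.70 ± 0.06 on the log2 scale (FPKM + 1). The skeletal actin Acta1 was at 121, 119 and 127 FPKM, the enteric smooth muscle actin Actg2 at 24.7, 27.6 and 25.3 FPKM, and the cardiac actin Actc1 at 0.150, 0.106 and 0.112 FPKM, so that 3 muscle actins besides Acta2 covered a wide range of levels. The Acta2 level was 24.1 ± 0.62 times that of Acta1.

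Listed genes of the Hippo pathway, mostly targets that its effectors YAP and TAZ switch on through TEAD factors, were also high by median. In this pathway cell spreading and tension send YAP and TAZ to the nucleus, where they bind DNA through TEAD proteins. Of 15 listed genes 15 reached 1 FPKM, against 59.4% of all protein-coding genes, with a median of 53.9 FPKM. At 100 FPKM or more there were 6, against 365 of all 18266 protein-coding genes. The counts for this list are not of targets alone, since it also holds the effectors and TEAD factors themselves. Yap1, Wwtr1 (which encodes TAZ), Tead1 and Tead3 were at 17.2, 46.0, 33.4 and 9.28 FPKM by mean. Ankrd1, Ctgf (also called Ccn2) and Cyr61 (also called Ccn1), the usual readouts of the pathway, were at 849.9, 883 and 847 FPKM, 845, 864 and 869 FPKM and 523, 536 and 531 FPKM, ranks 26, 27 and 44. The receptor kinase gene Axl was at 165 ± 1.09 FPKM, the tissue factor gene F3 at 306 ± 2.34 FPKM and Amotl2, a YAP inhibitor that YAP itself induces, at 108 ± 3.01 FPKM.

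The upstream sequences of Acta2, Ankrd1 and Cyr61 are shown because these 3 genes of high rank each carry the TEAD core motif GGAATG near the start of transcription. Each is the 250 bases before the RefSeq start (GRCm38.p6), written 5′ to 3′ on the gene's strand, with GGAATG or its reverse complement CATTCC in capitals. Acta2 is at chr19:34255374-34255623, minus strand, Ankrd1 at chr19:36119845-36120094, minus strand and Cyr61 at chr3:145649986-145650235, minus strand.
Acta2: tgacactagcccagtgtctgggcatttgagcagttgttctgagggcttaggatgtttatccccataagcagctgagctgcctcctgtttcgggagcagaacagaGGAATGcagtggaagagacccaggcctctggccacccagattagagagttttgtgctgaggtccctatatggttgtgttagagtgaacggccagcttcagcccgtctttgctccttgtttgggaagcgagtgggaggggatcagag
Ankrd1: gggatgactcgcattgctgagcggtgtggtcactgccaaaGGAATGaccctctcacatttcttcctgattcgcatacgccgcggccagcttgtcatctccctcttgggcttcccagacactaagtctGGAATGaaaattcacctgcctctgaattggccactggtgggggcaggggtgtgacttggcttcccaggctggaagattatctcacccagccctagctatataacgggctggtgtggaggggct
Cyr61: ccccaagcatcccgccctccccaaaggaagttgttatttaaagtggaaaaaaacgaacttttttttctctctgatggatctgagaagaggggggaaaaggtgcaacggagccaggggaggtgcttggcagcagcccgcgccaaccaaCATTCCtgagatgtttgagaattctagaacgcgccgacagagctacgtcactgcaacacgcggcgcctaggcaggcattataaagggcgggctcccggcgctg
The motif began 146 bases before the start in Acta2, 210 and 123 bases before it in Ankrd1 and, on the other strand, 103 bases before it in Cyr61. Of the 32851 mouse promoters in the RefSeq set, 12.6% held the motif in the same window, as did 10 of the 14 promoters found for the YAP and TEAD list and 13 of the 37 found for the contractile list. These counts are of promoters and not of genes, since a gene can have several. Ctgf, Tagln and Actb were not among the promoters matched. The YAP and TEAD list holds known targets as well as the factors themselves, so its count is a description. A match of 6 letters is not evidence of binding.

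Matrix genes were of the basement membrane and of the provisional, wound-like matrix more than of fibrillar collagen. Col4a1 and Col4a2, the chains of the main basement membrane collagen, were at 549, 539.5 and 523 FPKM and 334, 339 and 306 FPKM, a ratio of 1.65 ± 0.059. The perlecan gene Hspg2 was at 114 ± 4.59 FPKM, Agrn, agrin, at 136 ± 5.68 FPKM, and the laminin genes Lamb1 and Lamc1 at 112 ± 1.79 and 25.7 ± 0.279 FPKM. Col4a3, a chain of the mature glomerular and distal tubular basement membrane, was at 97.3 ± 4.98 FPKM. Of the 22 genes of this list 18 reached 1 FPKM (81.8%, against 59.4% of all protein-coding genes), with a median of 44.9 FPKM.

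Fibrillar collagens were lower. Col1a1, a chain of type I collagen, was at 21.6, 21.6 and 20.2 FPKM, its partner Col1a2 at 7.59, 7.04 and 7.03 FPKM and Col3a1 at 1.08, 0.818 and 0.926 FPKM. Col4a1 exceeded Col1a1 in 3 of 3 libraries by 4.60 ± 0.02 on the log2 scale (FPKM + 1). Col5a2 and Col5a1, which seed collagen fibrils, were at 43.95 ± 1.48 and 25.7 ± 0.800 FPKM, and both were above Col1a1 in each library.

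Among matrix glycoproteins 23 of 29 genes reached 1 FPKM (79.3%, against 59.4% of all protein-coding genes), with a median of 9.24 FPKM. At 100 FPKM or more there were 8, against 365 of all 18266 protein-coding genes. The list held 2.199% ± 0.043 of the summed FPKM. Besides fibronectin, Thbs1, thrombospondin 1, was at 1316, 1273 and 1256 FPKM, Tnc, tenascin C, at 709.8, 688 and 683 FPKM and Sparc, a collagen-binding protein, at 595, 596 and 604 FPKM. Serpinh1, the collagen chaperone HSP47, was at 406 ± 3.41 FPKM and the crosslinking enzyme gene Lox at 129 ± 3.22 FPKM. These 6 genes were each above Col1a1 in all 3 libraries. The share of this list depended on the measure, being 4.34% of recovered reads, since long transcripts such as Fn1 take more reads per unit of FPKM.

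In the fourth matrix list, of proteases and their inhibitors, 18 of 24 genes reached 1 FPKM (75%, against 59.4% of all protein-coding genes). Plau, urokinase, the protease that activates plasminogen, was at 278, 274 and 270.3 FPKM, and Plaur, its receptor, at 65.02, 60.4 and 63.6 FPKM. The inhibitors of metalloproteases Timp2 and Timp1 were at 102 ± 2.29 and 96.3 ± 3.34 FPKM, beside the membrane-bound metalloprotease Mmp14 at 88.8 ± 4.92 FPKM.

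**Figure D4:**
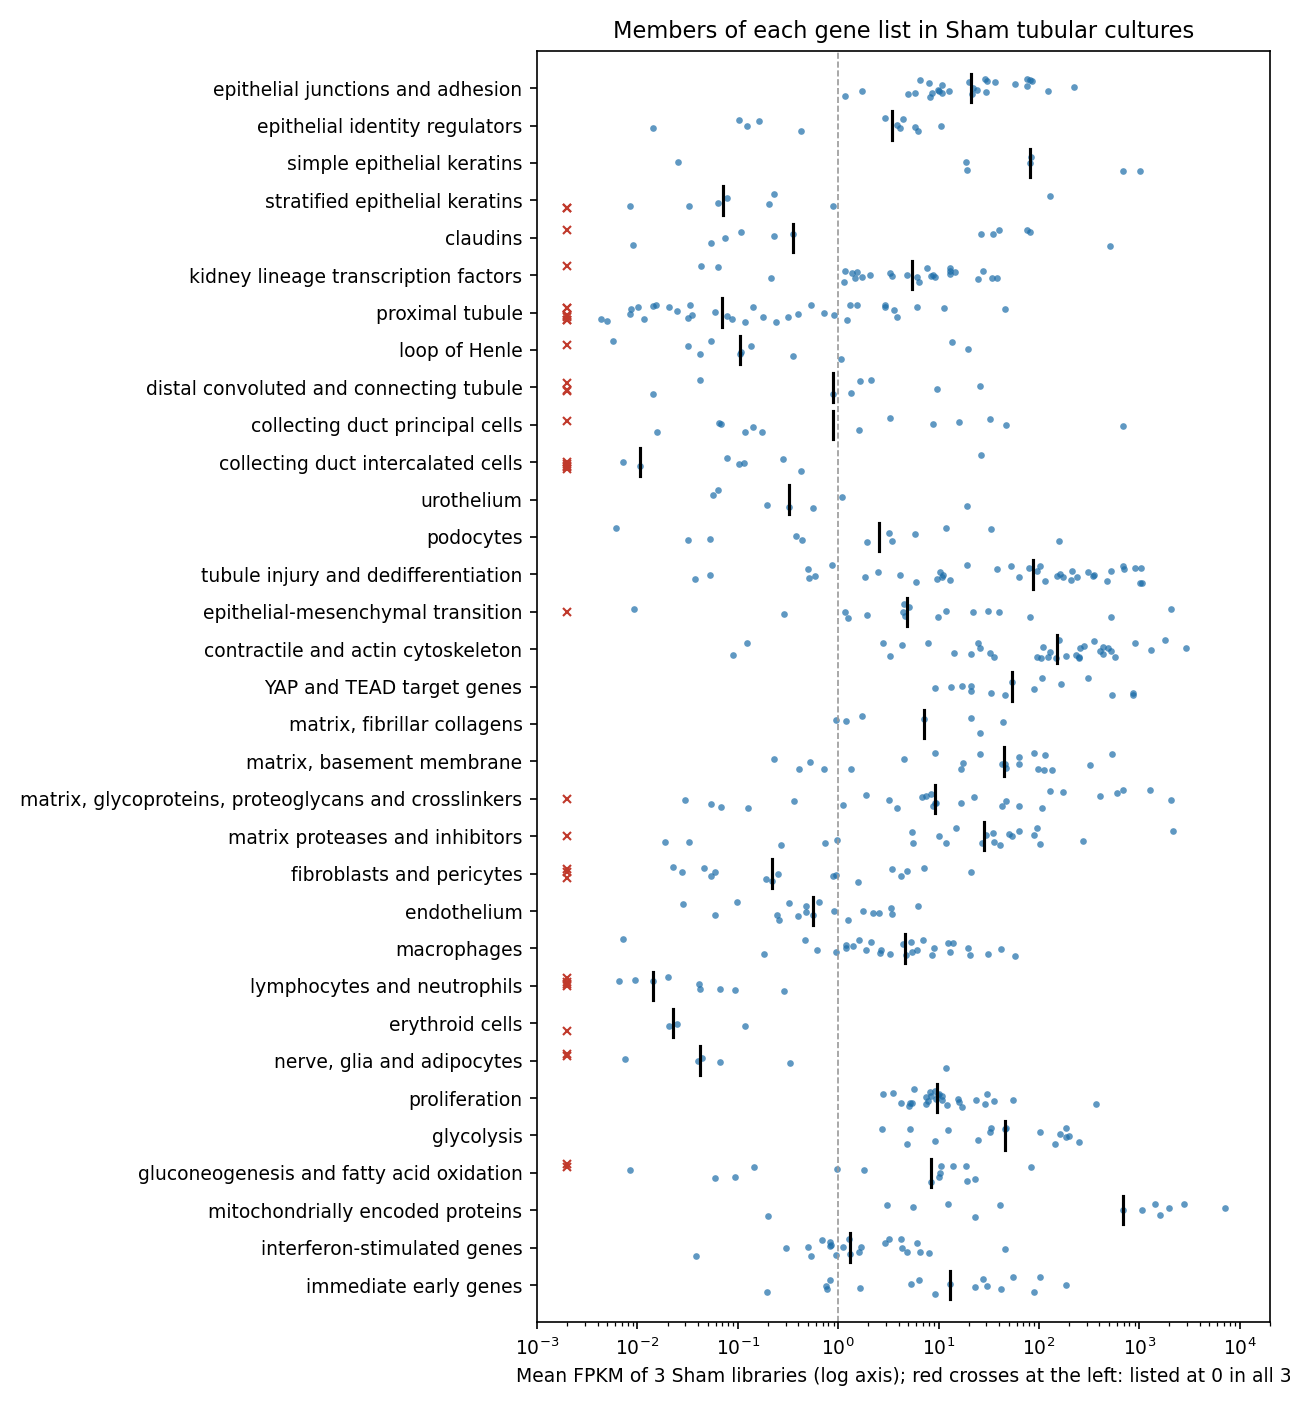
Mean FPKM over the 3 Sham libraries (x axis, log) of every measured member of 33 gene lists (rows), with the median of each list as a black bar, red crosses for genes listed at 0 in all 3 libraries and a dashed line at 1 FPKM. Contractile, injury and YAP lists sit to the right, and the proximal tubule, intercalated cell, lymphocyte and erythroid lists to the left.

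Markers of other cell types were used to describe what else the cultures held. In bulk RNA a small number of cells of a type cannot be told apart from little RNA in many cells. Macrophage genes were the clearest. Of 30 listed genes 25 reached 1 FPKM (83.3%, against 59.4% of all protein-coding genes), with a median of 4.60 FPKM. Their summed level was 274.7, 283 and 289 FPKM, or 0.108% ± 0.0022 of the total and 0.0522% of recovered reads. Lyz2, lysozyme, was at 55.8, 58.6 and 58.6 FPKM, C1qa, a chain of complement C1q, at 30.3, 32.5 and 30.5 FPKM, and Csf1r, the receptor that macrophages need to survive, at 5.66, 6.23 and 6.57 FPKM. Adgre1, which encodes F4/80, was at 2.55, 2.86 and 2.63 FPKM. Ptprc, the pan-leukocyte CD45, was at 0.435, 0.495 and 0.480 FPKM, carried by 131, 158 and 145 reads. All 5 defining macrophage genes were thus above the level of 3 reads in each library. Apoe and Ctss, at 42.4 ± 1.08 and 19.9 ± 0.967 FPKM, are not restricted to macrophages.

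Other leukocytes and red cells left little trace. Of the 13 measured genes of lymphocytes and neutrophils none reached 1 FPKM, and the highest was Cd4, which mouse macrophages can also express, at 0.291 ± 0.0779 FPKM. Cd79a, of B cells, was at 0.0417, 0.0394 and 0.0416 FPKM and S100a8, of neutrophils, was listed at 0, while Cd3e was not analysed here. None of the 4 measured erythroid genes reached 1 FPKM. For nerve, glia and adipocytes, Sox10 was at 0.00747 ± 0.0129 FPKM and Adipoq was listed at 0, and the 1 gene above 1 FPKM was the tubulin Tubb3 at 11.8 ± 1.16 FPKM.

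Endothelial genes were low but measurable. Of 19 genes 7 reached 1 FPKM (36.8%, against 59.4% of all protein-coding genes) and the median was 0.56 FPKM. Cdh5, VE-cadherin, was at 3.31, 3.43 and 3.50 FPKM, Emcn, endomucin, at 3.13, 3.47 and 3.56 FPKM, Pecam1, CD31, at 1.87, 1.61 and 1.79 FPKM, and Kdr, VEGF receptor 2, at 0.572, 0.686 and 0.657 FPKM. The summed level of the list was 25.2, 25.1 and 25.8 FPKM.

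Fibroblast and pericyte genes were low beside the contractile and matrix genes. Of 19 listed 6 reached 1 FPKM (31.6%, against 59.4% of all protein-coding genes) and the median was 0.219 FPKM. Pdgfra, a receptor of interstitial fibroblasts, was at 0.237, 0.137 and 0.199 FPKM, and Pdgfrb, which pericytes and myofibroblasts carry, at 3.93, 4.37 and 4.30 FPKM. Dcn, the proteoglycan decorin that fibroblasts make in large amounts, was at 0.0208, 0.0688 and 0.0726 FPKM and Lum, lumican, which the naming rule did not cover, was listed at 0. Cspg4, the pericyte marker NG2, was at 4.84 ± 0.203 FPKM and Notch3 at 3.43 ± 0.283 FPKM. The highest members of this list were the collagen genes Col1a1 and Col1a2, at 21.1 ± 0.790 and 7.22 ± 0.320 FPKM. Col1a1 gave 46.9% of the list's summed level. Acta2 was 2947 FPKM by mean in the same libraries, while the 3 defining fibroblast genes ran from 0.054 to 4.20 FPKM. Which cells carried Acta2 was not tested.

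The cultures expressed cell cycle genes. Of 28 genes of proliferation 28 reached 1 FPKM, against 59.4% of all protein-coding genes, with a median of 9.61 FPKM. Mki67, which encodes the Ki-67 antigen, was at 9.28, 9.85 and 10.2 FPKM, Top2a, the topoisomerase of dividing cells, at 10.6, 10.996 and 11.03 FPKM and Pcna, the DNA polymerase clamp, at 27.2, 29.7 and 30.8 FPKM. Ccnd1, cyclin D1, was at 55.1 ± 1.58 FPKM. The highest member, the tubulin Tubb5 at 368 ± 8.18 FPKM, is also used by cells that do not divide.

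Glycolytic genes stood higher by median than those of glucose synthesis and fatty acid oxidation. All 17 glycolysis genes reached 1 FPKM, against 59.4% of all protein-coding genes, with a median of 45.5 FPKM. Eno1, enolase, was at 249, 248 and 253 FPKM, Pkm, pyruvate kinase, at 195, 201 and 208 FPKM and Ldha, lactate dehydrogenase A, at 141, 144 and 149 FPKM. Hk2, the inducible hexokinase, was at 33.6 ± 1.70 FPKM. Of the 17 genes of gluconeogenesis and fatty acid oxidation 10 reached 1 FPKM (58.8%, against 59.4% of all protein-coding genes), with a median of 8.34 FPKM. Pck1 and Fbp1, enzymes of glucose synthesis in the proximal tubule, were listed at 0 in all 3 libraries, and G6pc was at 0, 0 and 0.0251 FPKM. Cpt1a, which admits fatty acids to mitochondria, was at 10.6 ± 0.239 FPKM, Acadl, a fatty acid dehydrogenase, at 84.3 ± 1.67 FPKM, and Ppara, the receptor that induces this pathway, at 0.0929 ± 0.0128 FPKM.

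Mitochondrially encoded genes held 6.49% ± 0.17 of the summed FPKM and 2.2% of recovered reads. Their levels ranged from 7239 FPKM for mt-Co1 to 0.198 FPKM for mt-Atp8. The cytochrome oxidase subunit mt-Co2 was at 39.3, 41.1 and 42.95 FPKM and 100% of its sampled 100-base words also occurred in transcripts of another gene, so its value is uncertain. The same holds for mt-Co3, mt-Nd3 and mt-Nd4l, each with 100% of such words, for mt-Atp6 with 98.6% and for mt-Nd4 with 55.9%, which makes 6 of the 13 genes. Without genes of this kind the mitochondrial share was 6.17%. The genes mt-Co2, mt-Co3, mt-Nd3, mt-Nd4l, mt-Atp6 and mt-Atp8 were picked after their values were seen.

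Immediate early genes, which cells switch on within minutes of a stimulus, were present in the Sham cultures. Egr1, the gene the study manipulates in other samples, was at 6.20, 6.91 and 6.09 FPKM (457, 540 and 451 reads, rank 6150). Jun was at 27.9 ± 1.79 FPKM and Fos at 1.67 ± 0.134 FPKM. The highest were Ier3, a survival gene, at 188 ± 6.09 FPKM, Junb at 103 ± 1.35 FPKM, Klf6 at 90.1 ± 3.32 FPKM and Dusp1, a phosphatase that shuts off MAP kinases, at 55.02 ± 1.01 FPKM. In all 13 of 17 reached 1 FPKM (76.5%, against 59.4% of all protein-coding genes).

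Interferon-stimulated genes reached 1 FPKM about as often as protein-coding genes at large. Of 23 measured 14 did so (60.9%, against 59.4% of all protein-coding genes), with a median of 1.30 FPKM against 2.46 FPKM, and the summed level was 95.1, 114 and 86.8 FPKM. Isg15, a ubiquitin-like protein, was at 4.02, 7.59 and 2.96 FPKM, highest in replicate 2. Ifit1 was at 0.641, 0.648 and 0.319 FPKM and Irf7 at 0.918, 0.942 and 0.610 FPKM. Bst2, tetherin, made up 46.4% of the summed level at 44.9, 52.02 and 40.5 FPKM and was likewise highest in replicate 2.

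The 3 libraries lay close together. Among the 7053 protein-coding genes at a mean of 5 FPKM or more, the median of SD over mean was 3.33%, and 22 genes reached 20%. Counting error had a median of 3.03%, taken as the SD expected from the mean number of reads. An SD over 3 libraries falls below its expected size more often than above it, so these medians are not like for like. Counting error did not cover the difference between any 2 libraries, with a chi-square of 1.97 to 2.57 per degree of freedom over genes for the 3 pairs. The 3 were therefore not taken for one library deposited more than once, which does not show that they were separate cultures. Among the 365 genes at 100 FPKM or more the largest SD over mean was 11.2%, for Ybx1. The 5 check genes had an SD over mean of 0.287% for Cdh1, 1.16% for Epcam, 2.16% for Acta2, 2.29% for Lrp2 and 6.20% for Havcr1.

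The 12 least even genes had means between 5.05 and 19.1 FPKM. Lars2, which encodes the mitochondrial leucyl-tRNA synthetase, was at 10.5, 6.19 and 39.9 FPKM, the largest SD over mean of all (97.3%), and replicate 3 was high. Nkain1, at 6.18, 15.7 and 7.22 FPKM, was high in replicate 2. Coro1b, an actin regulator, was at 13.5, 10.2 and 25.8 FPKM, and Ppp1ca, a phosphatase subunit, at 24.4, 11.6 and 11.4 FPKM. The order of the libraries thus differed between these genes, and 3 of the 12 followed the order of the non-coding row Gm23935. The others were Gstp1, Ppp2r5b, Gm17622, Mat2a, Mrps23, Rpp38, Pold4 and Tm2d1, between 25.7% and 46.4%. None of the cell type markers above was among the 12.

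**Figure D5:**
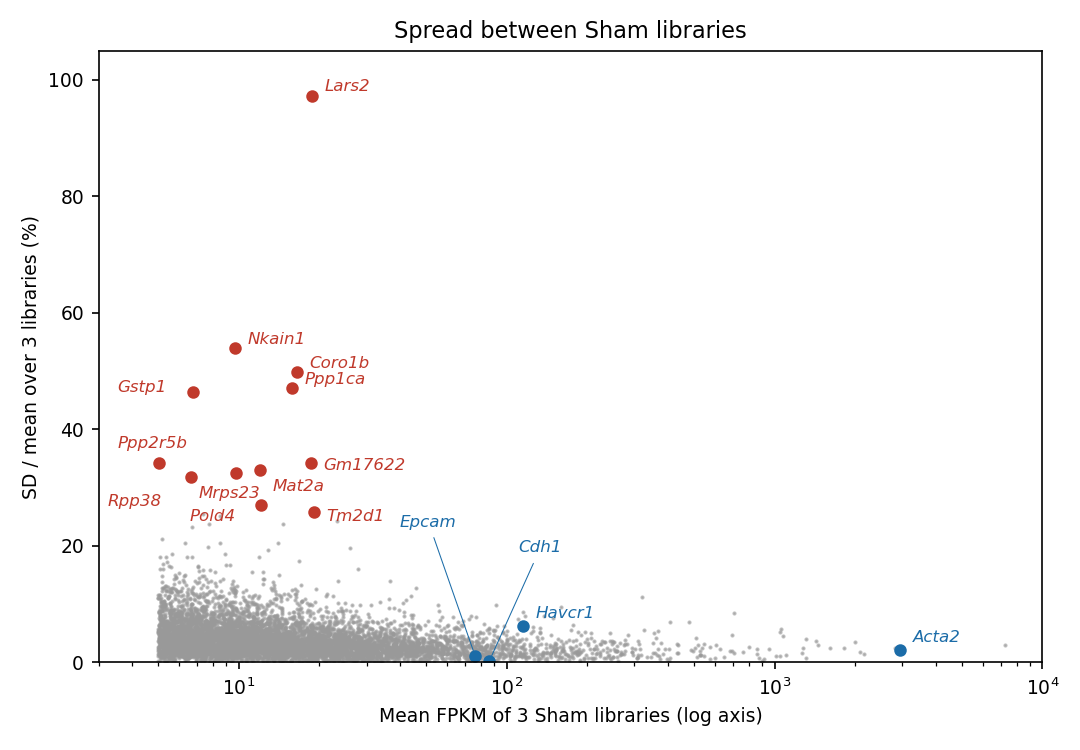
SD over mean of the 3 Sham libraries (y axis, percent) against mean FPKM (x axis, log) for the 7053 protein-coding genes at a mean of 5 FPKM or more (grey), with the 12 least even genes in red and 4 check genes in blue. Most genes lie under 10%, Lars2 stands alone near the top, and Lrp2 is not drawn because its mean is under 5 FPKM.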

How the data were processed

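RNA of 3 Sham libraries was sequenced on an Illumina instrument, and the authors deposited FPKM values per gene and library, without pooling. The submitters' processing notes name HISAT2 2.1.0, Bowtie2 2.2.3, TopHat2 and the build mm9, but 94.7% of gene positions in the table equalled GENCODE M21, so they are GRCm38 positions. The counter, its annotation and its use of strand are not given in the sources used here. From the FPKM, depth was recovered with exon lengths of GENCODE M21, and 94.0% of values of 1 to 1000 reads were whole within 0.02 reads. Means and SD (n = 3) were taken of FPKM, ranks by mean FPKM, and log2 ratios after adding 1 FPKM. No test of a gene or between conditions was made. Libraries were compared in pairs by a chi-square of their recovered reads against counting error.

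The members and 33 gene lists were chosen with earlier results of these data known. The 599 listed symbols gave 578 genes of the table, 5 of the symbols through RefSeq synonyms. Of 2 rows named Aldoa the higher was taken. Named were the check genes, the 30 highest genes, the defining members and the 4 highest other members of each list, the paired genes, the actin genes and the 12 least even genes. Genes named beyond this (Cldn6, Cnn1, Smtn, Tpm2, Lmod1, mt-Co2, mt-Co3, mt-Nd3, mt-Nd4l, mt-Atp6, mt-Atp8, Lum, Ybx1 and those of the closing section) were chosen after their values were seen. Some genes that the rule named, and a pair of genes, are not reported here. Promoters came from RefSeq (GRCm38.p6). Depth recovery and spread were tested on simulated data. Alternatives were other minimum levels, all rows, recovered reads, a pseudocount of 0.1, mitochondrial genes left out and each library left out. The software was scipy 1.17.1, pandas 2.3.3 and numpy 2.4.6 under Python 3.11.15, with figures by matplotlib 3.10.9.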

Additional observations from a re-analysis of the deposited data

Results flagged for a closer look

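Among rows that are not protein-coding, Gm23935, annotated as a miRNA gene of 57 bases (chromosome 16, 11144125 to 11144181, plus strand), stood at 19553 FPKM in Sham replicate 3, against 4188 and 1697 FPKM in replicates 1 and 2. Gm24270, a miRNA gene of the same length (chromosome 9, 56223715 to 56223771, minus strand), stood at 1327 FPKM in replicate 3, against 242 and 124 FPKM. Both were noted because they lie outside the protein-coding rows and above the level that 3 reads allow, and in both the order of the libraries was the same. The protein-coding share of the summed FPKM was lowest in replicate 3 (87.6%), and Lars2 was highest there (10.5, 6.19 and 39.9 FPKM). The cause was not tested.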

How the results depend on the processing

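No paired analysis was possible because there was a single group. Of the recomputed values, 90 moved by less than the spread between libraries (counts of genes by less than 1.5 times) and 39 by more, and no log2 ratio changed sign. The 90 include shares and log2 ratios recomputed without a library, which could not have moved by that spread. The tally is therefore no measure of how stable these values are. At a minimum of 5 FPKM 6848 genes were expressed. With all rows as denominator the shares were 9.48% (10 highest genes), 26.99% (100 highest), 5.93% (mitochondrial), 4.45% (contractile), 2.01% (matrix glycoproteins), 0.0296% (proximal tubule) and 0.0989% (macrophages). Without mitochondrial genes they were 7.61%, 25.4%, 5.21% (contractile), 2.35%, 0.0346% and 0.116%. As shares of recovered reads, in which long genes weigh more, they were 7.08%, 20.1%, 2.2%, 4.68%, 4.34%, 0.0381% and 0.0522%. Without genes that share more than 50% of their exon bases or words with another gene, an alternative chosen after seeing the data, they were 10.6% (10 highest), 6.17% (mitochondrial), 4.97% (contractile), 2.25% (matrix glycoproteins) and 0.0331% (proximal tubule). Among all rows the ranks were 463 (Cdh1), 559 (Epcam), 3 (Acta2), 328 (Havcr1) and 8640 (Lrp2). Leaving out each library gave ranks of 434 to 439 for Cdh1 and 2 to 3 for Acta2. Without replicate 1 Acta2 ranked 3. With a pseudocount of 0.1 the log2 ratios were 12.69 (Krt8 to Krt5), 4.96 (Havcr1 to Lrp2), 4.66 (Col4a1 to Col1a1), 10.50 (Ldha to Pck1) and 11.16 (Krt18 to Krt14), against 9.90, 4.66, 4.60, 7.19 and 9.16 with 1. Those against Pck1, Krt5 and Krt14, listed at or near 0, follow the pseudocount and are no measure of fold. With no filter on low values the median SD over mean was 5.75%. Depth limits genes under about 0.1 FPKM, where a few reads carry the value.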

Other observations

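Some genes that every cell uses were listed low. Rpl24, a ribosomal protein gene, was at 0.177, 0.223 and 0.412 FPKM, with 46.99% of its exon bases under another gene and 45% of its sampled 100-base words in transcripts of another gene. Jund, which encodes a subunit of the transcription factor AP-1, was at 0.802, 0.825 and 0.654 FPKM (52.6% and 43.7%). Of 698 protein-coding genes for which either share exceeded 50%, 25.8% reached a mean of 1 FPKM, against 60.8% of the other 17568. S100a4, a mesenchymal marker listed at 0 in all 3 libraries, was among the 698 (51.7% of exon bases). B2m, with neither, was at 429.6, 443 and 434 FPKM. How the authors' counting treated such reads is not given in the sources used here, and its part in these values was not tested.

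Of the 12 least even genes, 5 lie within 2.2 Mb of chromosome 19 (Gstp1, Coro1b, Ppp1ca, Pold4 and Ppp2r5b), a chromosome that holds 3.91% of the 7053 genes examined. The stretch held 60 of those genes, with a median SD over mean of 4.19%. The 5 did not share an order of the libraries, since replicate 3 was highest for Coro1b (13.5, 10.2 and 25.8 FPKM) and replicate 2 for Gstp1 (5.70, 10.2 and 4.24 FPKM). This grouping was noticed after the values were seen and was not tested.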
